A study of Mus musculus with 2 samples.

Results

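Homeobox and *Pax* genes that mark position along the body, jaws and mouth were examined in mouse tongue. They were the rows of the deposited gene table whose symbol begins with Hoxa, Hoxb, Hoxc, Hoxd, Dlx, Msx, Pitx, Irx, Meis, Lhx, Barx, Pax or Nkx followed by a digit. The rule took 55 of the 18498 rows of the table, of which 18043 carried a gene symbol, and it used no measured value. Genes of these families without a row could not be examined. Expression was compared between the circumvallate papillae (CvP), the taste papillae at the rear of the tongue, and tongue epithelium without papillae (Epi), in a study that set out to find genes of salt taste reception. Both groups were untreated male mice of the C57BL/6J strain aged 12 to 30 weeks, and poly(A) RNA from at least 20 mice was pooled into 1 library per tissue. The CvP tissue took in the epithelium around the taste buds. The study's text calls the Epi epithelia surrounding the CvP, while its scheme of the tongue places the Epi in front of the CvP. Position along the tongue and presence of the papilla therefore cannot be told apart. There was no replicate, no p-value was calculated, and every comparison was between these 2 libraries.

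Homeobox genes encode transcription factors that bind DNA through a homeodomain, and *Pax* genes encode factors that bind through a paired domain, joined in some members by a homeodomain. In the embryo the *Hox* genes of a cluster are switched on in an order that follows their order on the chromosome and give cells an address along the body axis. The *Dlx*, *Msx*, *Barx*, *Pitx*, *Lhx* and *Pax9* genes are known from the jaws, teeth and oral epithelium, and many of these genes stay on in adult epithelia. *Meis* proteins carry a homeodomain with extra residues between helices, and bind DNA together with Hox and Pbx proteins.

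The libraries held about 28380000 mapped reads (CvP) and 27910000 mapped reads (Epi), as read from the step between the lowest values. Expression was given as RPKM, a density of reads scaled to the kilobases of the exon model and to the number of mapped reads. Ratios are given with 95% exact binomial intervals from the estimated reads of each gene, and these cover counting error only. Those reads are counted over no more than the longest annotated transcript, so for genes with a longer listed length they are fewer than the reads behind the RPKM. All 10 taste cell markers had a ratio above 3 in favour of the CvP, and their summed RPKM was 509.38 (CvP) and 6.18 (Epi). The 8 keratinocyte markers summed to 32073.37 in the CvP library and 73629.21 in the Epi library, sums that were mostly *Krt13* and *Krt4*. Of these 8, 4 were higher in the CvP (*Cdh1*, *Dsg3*, *Krt5* and *Trp63*), and the median log2 ratio was -0.21. Over all rows that reached an RPKM of 1 in a library, the median log2 CvP/Epi ratio was 0.50, so values leaned towards the CvP across the table.

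Of the 55 genes, 19 (34.5%) reached an RPKM of 1 in either library, against 12549 rows (67.8%) of the whole table. The 5 most abundant were *Pitx1*, *Pax9*, *Pax1*, *Barx2* and *Dlx3*. Of the 19, 8 were higher in the CvP and the other 11 (57.9%) in the Epi, whereas 21.8% of all rows at that level were higher in the Epi. A ratio above 3 in favour of the CvP was seen for 4 of the 19 (21.1%), *Pax1*, *Nkx2-2*, *Meis3* and *Irx2*, beside 15.9% of all such rows. A ratio above 3 in favour of the Epi was seen for 6 (31.6%), among them *Hoxc13*, *Lhx6*, *Irx4*, *Msx2* and *Dlx3*, beside 1.96% of all such rows. On the log2 scale the CvP/Epi ratio of these 19 had a median of -0.81 with a pseudocount of 0.1 RPKM, which understates the change of low genes. *Nkx2-2* and *Hoxc13*, listed at 0 in one library, lie on the 2 sides of that median, so setting them to their lower limits leaves it as it is. With both RPKM columns rescaled to a common sum, 24 of the 55 genes reached 1. Of these 24, 8 (33.3%) were above the ratio for the CvP and 5 (20.8%) for the Epi, beside 24.5% and 1.63% of all such rows. The common sum was above the deposited sums of 341141 (CvP) and 411512 (Epi), so the cut of 1 took in lower deposited values. *Irx1* and *Irx5*, with deposited CvP values of 0.53 and 0.66, were added to the CvP side in this way. *Hoxb3* and *Nkx2-3*, already above 1, were added because their CvP/Epi ratios rose to 3.2 and 3.4. The study's criteria, an RPKM above 10 in the CvP at more than 3 times the Epi value, were met by 1 of the 55 genes (1.82%), *Pax1*, beside 2.35% of all rows.

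**Figure D1:**
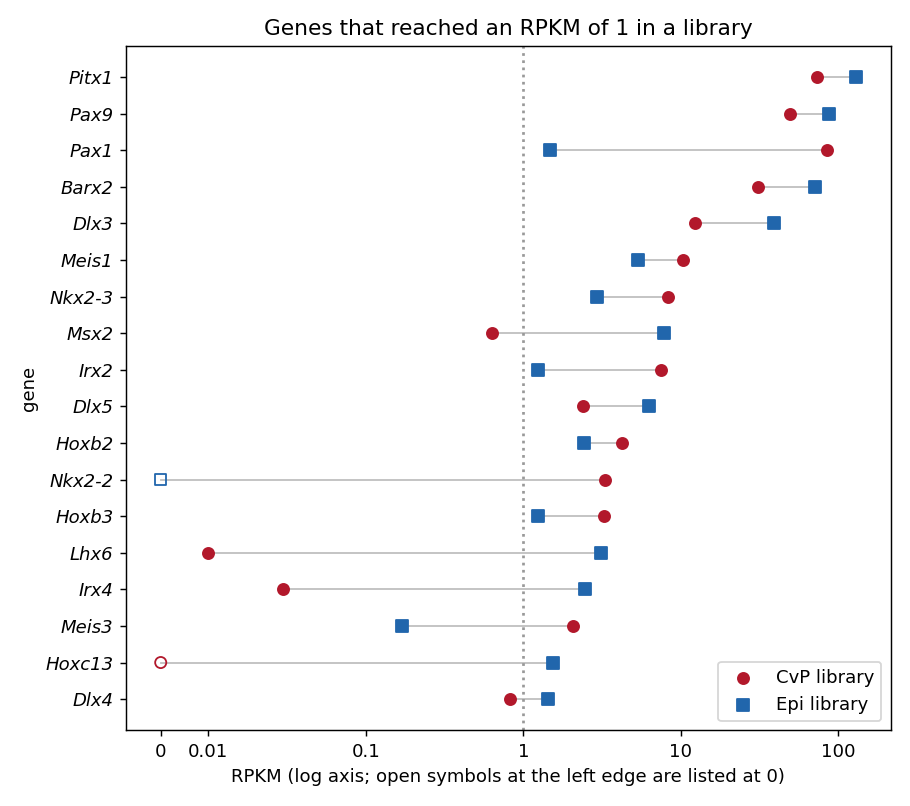
RPKM (log axis) of the named genes that reached 1 in a library, with red circles for the CvP library and blue squares for the Epi library, and open symbols at the left edge for values listed at 0. *Pitx1* and *Pax9* were high in both libraries, *Pax1* was far higher in the CvP (84.97 against 1.47), and *Nkx2-2* and *Hoxc13* were listed at 0 in opposite libraries.

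To show how closely the proteins of these genes are related where they touch DNA, the 30 bases that encode residues 46 to 55 of the homeodomain are given for 5 of the genes, with the codon of residue 50 in capitals. Residue 50 lies in the recognition helix and is known to help set which DNA bases a homeodomain prefers. The sequences come from GENCODE M1 transcripts on NCBI37/mm9, and the genes were picked to show the relatives *Irx2* and *Irx4*, which differed in direction between the libraries, beside genes of other families.
Irx2: tccacctggttcGCCaacgcgcgccgacgt
Irx4: tccacctggtttGCCaacgcacgtcggcgc
Pitx1: cgggtctggttcAAGaaccggcgagccaaa
Nkx2-3: aaaatctggttcCAGaatcgcaggtacaag
Hoxc13: accatctggttcCAGaatcgacgcgtgaaa

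The *Irx2* bases lie at chr13:72768253-72768282 on the plus strand, in exon 2 of 5, and the *Irx4* bases at chr13:73405112-73405141 on the plus strand, in exon 5 of 6. The *Nkx2-3* bases lie at chr19:43689014-43689043 and the *Hoxc13* bases at chr15:102757776-102757805, both on the plus strand and in exon 2 of 2. The *Pitx1* run crosses the junction of exons 2 and 3. The run could be read in 17 of the 19 genes, and *Pax1* and *Pax9*, whose proteins have no homeodomain, held no match.

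Residue 50 was glutamine in *Barx2*, *Dlx4*, *Dlx5*, *Hoxb2*, *Hoxb3*, *Hoxc13*, *Lhx6*, *Msx2* and *Nkx2-3*. It was lysine in *Pitx1*, alanine in *Irx2* and *Irx4*, and isoleucine in *Meis1* and *Meis3*. *Nkx2-3* carried tyrosine at residue 54. *Irx2* and *Irx4* had 25 of 30 identical bases and the same residue 50, but lay on opposite sides of the comparison. *Hoxb2* and *Hoxb3* had 26 identical bases and *Meis1* and *Meis3* 28, and each of these pairs lay on the same side. *Hoxb2* and *Hoxc13* had 25, as did *Msx2* and *Nkx2-3*, and each of these pairs lay on opposite sides. Whether likeness of these bases goes with direction was not tested. Of all windows of 75 bases in the longest coding transcript of each gene, none came within 2 mismatches of another coding gene in 15 of the 19 genes. The share was 0.107% in *Hoxb3*, 0.942% in *Irx2*, 1.3% in *Msx2* and 3.77% in *Pax9*. Sequence outside these transcripts and copies in non-coding sequence were not searched. In *Pax1* the transcript has 2.643 kb of a listed length of 25.001 kb, so most of the listed length was left out.

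*Pax1*, a paired box gene known from the pharyngeal pouches, the thymus and the vertebral column, was the most abundant of the 55 genes in the CvP. Its RPKM was 84.97 in CvP tissue against 1.47 in Epi tissue, which over the annotated transcript length is about 6373 and 108 reads and over the longer listed length 60289 and 1026. The CvP/Epi ratio was 57.8 (interval 48 to 70.9). *Pax1* ranked 513th of all rows in the CvP and 9805th in the Epi. On NCBI37/mm9 its row runs along chromosome 2 from base 147190730 to base 147200784. *Pax9*, its closest relative and a gene needed for teeth, palate and pharyngeal pouch organs, was abundant in both libraries and lay on the other side. Its RPKM was 49.69 (CvP) and 87.09 (Epi), and the Epi/CvP ratio was 1.75 (1.70 to 1.81). Both genes were thus abundant in the CvP, and *Pax9* was abundant in the Epi as well. Of the other 4 *Pax* genes with a row, *Pax3*, *Pax6*, *Pax7* and *Pax8*, none passed an RPKM of 0.08 in either library.

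*Meis1* also had an RPKM of at least 10, and *Nkx2-2* had the highest CvP/Epi ratio with its 0 in the Epi set to 3 reads. For these 2 and the *Pax* genes above, the 100 bases before the annotated start are given, with each CG in capitals. They are RefSeq sequences of the genome build GRCm38.p6, another build than that of the expression table.
Pax1: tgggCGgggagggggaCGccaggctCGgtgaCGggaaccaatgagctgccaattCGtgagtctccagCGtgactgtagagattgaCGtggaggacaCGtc
Pax9: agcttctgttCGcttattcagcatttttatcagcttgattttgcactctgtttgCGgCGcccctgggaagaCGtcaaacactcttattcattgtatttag
Meis1: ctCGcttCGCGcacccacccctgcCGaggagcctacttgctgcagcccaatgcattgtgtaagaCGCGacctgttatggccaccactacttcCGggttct
Nkx2-2: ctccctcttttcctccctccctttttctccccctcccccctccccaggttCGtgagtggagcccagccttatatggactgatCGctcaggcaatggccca

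On GRCm38.p6 these windows are chr2:147364894-147364993 on the plus strand for *Pax1*, chr12:56695371-56695470 on the plus strand for *Pax9*, chr11:19018970-19019069 on the minus strand for *Meis1* and chr2:147186403-147186502 on the minus strand for *Nkx2-2*. The promoter table held 32 of the 55 genes, 10 of them among the 19. Over its windows of 300 bases, the ratio of observed to expected CG had a median of 0.662 in the 32 genes and 0.683 in the 10, against 0.389 over all 27025 genes of the table. A ratio above 0.6 was found for 56.2% of the 32, 70% of the 10 and 36.4% of all genes. The letters TATAAA, read on the gene's strand, were absent from the last 50 bases before the start in all 32 genes and present there in 2.88% of all genes.

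*Pitx1*, a bicoid-related homeobox gene of the oral epithelium, the pituitary and the hindlimb, was the most abundant of the 55 genes in the Epi. Its RPKM there was 128.95, against 73.23 in the CvP, which over the annotated transcript length is about 8811 and 5088 reads and over the longer listed length 52276 and 30185. The Epi/CvP ratio was 1.76 (1.70 to 1.82). *Pitx1* was thus high in both tissues and leaned to the Epi, as *Pax9* did.

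*Barx2*, a homeobox gene known to act on cell adhesion genes, and the more abundant *Dlx* genes, relatives of the fly *Distal-less* gene, were also higher in the Epi. *Barx2* had an RPKM of 30.68 in CvP tissue against 71.04 in Epi tissue, and an Epi/CvP ratio of 2.32 (2.19 to 2.45). *Dlx3*, which acts in the differentiation of epidermis, hair and teeth, had an RPKM of 12.23 (CvP) and 38.81 (Epi). Its Epi/CvP ratio was 3.17 (2.95 to 3.42), and it no longer passed 3 once both columns were rescaled to a common sum, which moved its CvP/Epi ratio from 0.32 to 0.38. All 3 *Dlx* genes that reached an RPKM of 1 were on the Epi side. *Dlx5*, a gene of the lower jaw and of bone, had 2.41 in the CvP library and 6.29 in the Epi library, a ratio of 2.61 (2.06 to 3.35). *Dlx4*, which lies 15.2 kb from *Dlx3* on chromosome 11, had 0.82 in CvP tissue against 1.43 in Epi tissue, a ratio of 1.74 (1.23 to 2.50). The *Dlx3* level was thus far above that of its neighbour in both libraries, and both leaned the same way. The partners of the other *Dlx* pairs were low, at an RPKM of 0.04 or less for *Dlx6*, 0.16 or less for *Dlx1* and 0.70 or less for *Dlx2*.

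*Msx2*, a homeobox gene that responds to bone morphogenetic proteins in skull, tooth and hair, was 12.5 times as high in the Epi as in the CvP. Its RPKM was 0.63 (CvP) and 7.87 (Epi), from about 39 and 475 reads, and the ratio's interval was 8.93 to 17.6. Its relative *Msx1* was low, with 0.04 and 0.31 and an Epi/CvP ratio of 7.75 (2.05 to 77.1). *Msx1as*, on the opposite strand of *Msx1*, had 0.02 and 0.19. The methods do not say that the counting used strand, so reads of a gene and of an antisense partner cannot be told apart. *Msx3* had 0.12 and 0.03, from about 8 and 2 reads, and its interval held 1.

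*Lhx6*, a LIM homeobox gene of tooth and jaw mesenchyme and of cortical interneurons, showed one of the clearest splits. Its RPKM was 0.01 in the CvP library and 3.11 in the Epi library, from about 1 and 302 reads. The Epi/CvP ratio was 311, with an interval of 54.7 to 12168. The other 4 *Lhx* genes with a row, *Lhx2*, *Lhx3*, *Lhx5* and *Lhx9*, had no more than 3 estimated reads in either library. Among these *Lhx* genes, then, *Lhx6* was the one clearly read, and almost all its reads were in the Epi.

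The *Hox* genes were mostly at or near 0. Of 13 rows, 5 in the HoxA cluster, 6 in HoxB, 1 in HoxC and 1 in HoxD, 8 had no more than 3 estimated reads in either library, among them all 5 HoxA rows and *Hoxd8*. *Hoxb2* and *Hoxb3*, known for giving hindbrain segments and the arches below them their identity, were higher in the CvP. *Hoxb2* had an RPKM of 4.24 in CvP tissue against 2.42 in Epi tissue, a CvP/Epi ratio of 1.75 (1.49 to 2.08). *Hoxb3* had 3.25 and 1.24, a ratio of 2.62 (1.97 to 3.53). Their neighbours were near 0, with *Hoxb4*, 1.5 kb from *Hoxb3*, at 0.17 in both libraries, *Hoxb9* at 0.06 and 0.04, and *Hoxb1* and *Hoxb5* at 0 and 0.02. Among the 6 HoxB rows, RPKM values of at least 1 were thus limited to *Hoxb2* and *Hoxb3*, which lie 3.7 kb apart. Some genes of the cluster, such as *Hoxb6*, had no row.

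*Hoxc13*, a gene at the far end of its cluster that is needed for hair, nails and the filiform papillae of the tongue, was the one *Hox* gene above an RPKM of 1 on the Epi side. It was listed at 0 in the CvP and at 1.54 in the Epi, from about 105 reads. Against a floor of 3 reads in the CvP library it was at least 35.4-fold higher in the Epi, while its counting interval began lower, at 28.4. Among the *Hox* genes with a row, those above an RPKM of 1 were thus *Hoxb2* and *Hoxb3* on the CvP side and *Hoxc13* on the Epi side. The first pair is of the anterior end of a cluster and *Hoxc13* of the posterior end. Neither *Hoxb2* nor *Hoxb3* had a ratio above 3, and most rows at that level were higher in the CvP, with 21.8% higher in the Epi. Divided by the median ratio of such rows, 1.31, the CvP/Epi ratio of *Hoxb2* was 1.33.

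**Figure D2:**
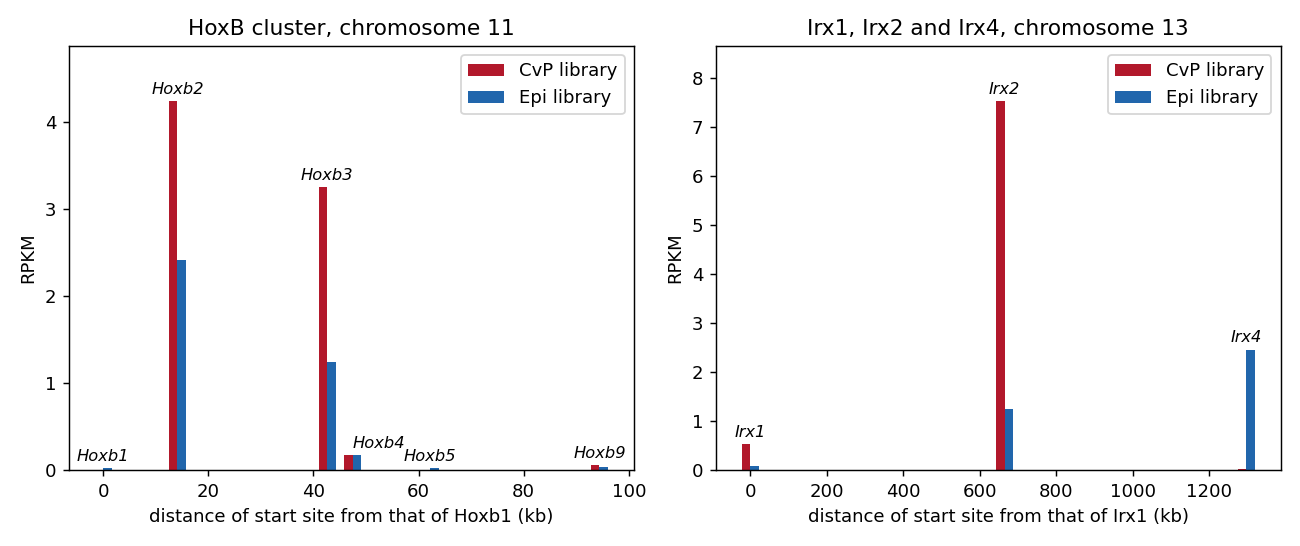
RPKM of the HoxB genes on chromosome 11 (left) and of *Irx1*, *Irx2* and *Irx4* on chromosome 13 (right), placed by the distance of their start sites in kb, with red bars for the CvP library and blue bars for the Epi library. In HoxB the bars stand at *Hoxb2* and *Hoxb3*, higher in the CvP, and in the *Irx* cluster *Irx2* (7.53 against 1.24) and *Irx4* (0.03 against 2.46) lean opposite ways.

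The *Irx* genes, relatives of the fly Iroquois genes that divide tissues into territories, split within both of their clusters. *Irx2* had an RPKM of 7.53 (CvP) and 1.24 (Epi), a CvP/Epi ratio of 6.07 (4.85 to 7.65). *Irx4*, 626.3 kb away on the same chromosome, had 0.03 in the CvP library and 2.46 in the Epi library, from about 2 and 179 reads. Its Epi/CvP ratio was 82.0 (24.8 to 757). *Irx1*, 665.3 kb from *Irx2* on its other side, stayed below 1 with 0.53 in CvP tissue against 0.08 in Epi tissue, a CvP/Epi ratio of 6.62 (2.35 to 20.1). *Irx1* and *Irx2* leaned to the CvP and *Irx4* to the Epi. In the cluster on chromosome 8, *Irx5* had 0.66 (CvP) and 0.14 (Epi), a CvP/Epi ratio of 4.71 (2.37 to 11.4). *Irx3*, 556.4 kb from it, had 0.28 and 0.94, an Epi/CvP ratio of 3.36 (1.93 to 6.42). All 5 *Irx* intervals left out 1, 3 on the side of the CvP and 2 on that of the Epi.

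The *Nkx2* genes, homeobox genes of endoderm, gut wall and ventral neural tube, lay on the CvP side where they reached an RPKM of 1. *Nkx2-2*, known from the pancreatic islets and the ventral spinal cord, was at 3.30 in the CvP, about 198 reads over the annotated transcript length, and was listed at 0 in the Epi. Against a floor of 3 reads in the Epi library it was at least 65.0-fold higher in the CvP, while its counting interval began lower, at 52.3. *Nkx2-2as*, which overlaps it on the opposite strand, was at 0.09 in the CvP library and 0 in the Epi library. *Nkx2-3*, known from spleen, gut and salivary gland, had 8.27 in CvP tissue against 2.93 in Epi tissue, a CvP/Epi ratio of 2.82 (2.36 to 3.37). *Nkx2-2* lies 178.6 kb from *Pax1* on chromosome 2, and both had a ratio above 3 for the CvP. *Nkx2-9*, which lies 82.4 kb from *Pax9* on chromosome 12, had no more than 3 reads in either library.

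The *Meis* genes that reached an RPKM of 1 were higher in the CvP. *Meis1* had an RPKM of 10.33 in the CvP library and 5.34 in the Epi library, a CvP/Epi ratio of 1.93 (1.74 to 2.16). *Meis3* had 2.08 and 0.17, from about 105 and 8 reads, a ratio of 12.2 (6.32 to 30.7). *Meis2*, below 1 in both, leaned the other way with 0.41 and 0.89 and an Epi/CvP ratio of 2.17 (1.5 to 3.20). *Meis1* was the most abundant of the 3 in both libraries.

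**Figure D3:**
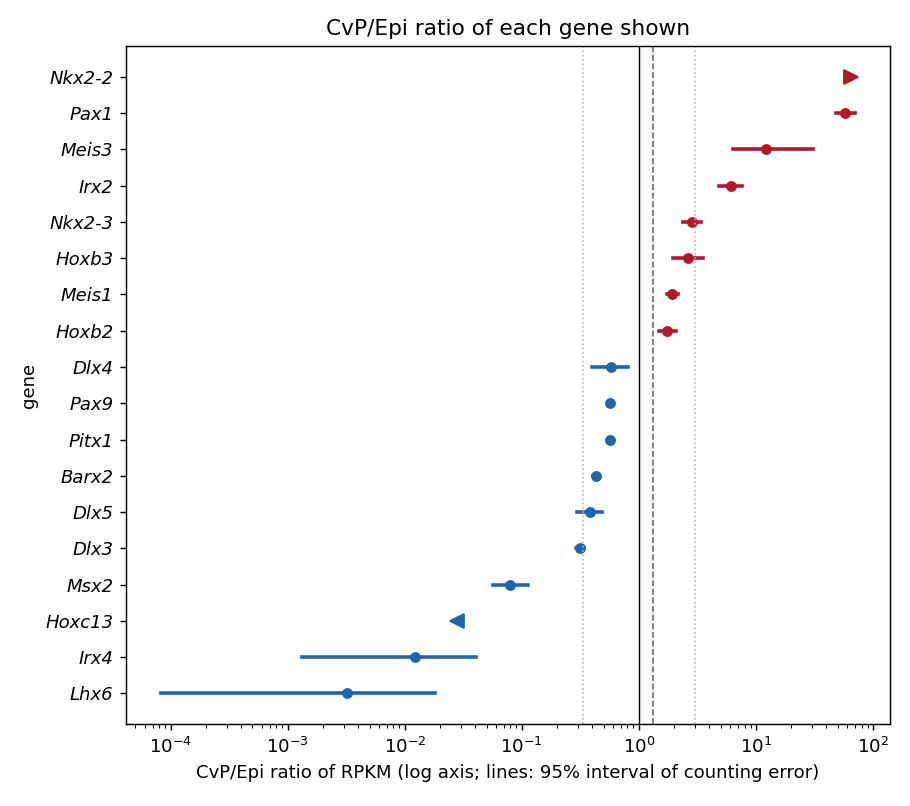
CvP/Epi ratio of RPKM (log axis) of the named genes, with lines for the 95% interval of counting error and triangles for lower limits of genes listed at 0 in one library. The solid line is a ratio of 1, the dashed line the median ratio of rows at an RPKM of 1 or more in both libraries (1.31), and the dotted lines a ratio of 3 each way. The genes run from *Lhx6* and *Irx4*, furthest to the Epi side, to *Pax1* and *Nkx2-2*, furthest to the CvP side, and none has an interval that spans 1.

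Over the 36 genes below an RPKM of 1, the highest value was 0.66 in the CvP (*Irx5*) and 0.94 in the Epi (*Irx3*). In 20 of them neither library passed 3 estimated reads, and no ratio is given. Among the other 16, the interval lay above 1 in 3 (*Irx1*, *Irx5* and *Nkx2-2as*) and below 1 in 7 (among them *Dlx2*, *Dlx6os1*, *Irx3*, *Meis2*, *Msx1* and *Msx1as*). It held 1 in 6, *Dlx1*, *Hoxb4*, *Hoxb9*, *Msx3*, *Pax3* and *Pax8*. Of the 36, 10 were listed at 0 in the CvP and 5 at 0 in the Epi. Over all 55 genes the interval lay above 1 in 11 and below 1 in 18, beside 56.8% and 12% of all rows. The 4 antisense or opposite-strand rows had no value above 0.19.

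The length that the table lists for a gene sets its RPKM, and in several of the most abundant genes it was longer than the annotated transcript. It was 25.001 kb for *Pax1*, whose longest coding transcript has 2.643 kb and whose row spans 10.055 kb. It was 27.004 kb against 4.347 kb for *Pax9*, 14.524 kb against 2.448 kb for *Pitx1*, and 7.636 kb against 2.118 kb for *Nkx2-2*. In *Pax1*, *Pax9*, *Pitx1*, *Nkx2-3* and *Hoxb2* the listed length was above the whole span of the row. Of the 19 genes, 10 were listed at over 1.5 times the annotated length, and so were 44.6% of 12029 rows of the table at an RPKM of at least 1. The 36 low genes had a median listed length of 0.996 times the annotated one, against 1.79 times in the 19. The length is the same for both libraries, so levels between genes are less sure than the ratio within a gene, but what sequence the added length covers is not given in the sources used here. Without the 10 genes, 1 of 9 was left above a ratio of 3 for the CvP, *Meis3*, and 6 of 9 for the Epi, beside 20.1% and 2.37% of all rows under the same limit on length. *Pax1*, *Nkx2-2* and *Irx2* were among those left out. Transcribed neighbours lie close to some of these genes, as *Slc25a21* does 1.4 kb from *Pax9*, with an RPKM of 2.68 and 5.07 (CvP and Epi), and *D430050G20* 0.4 kb from *Irx2*, with 2.08 and 0.19, and their part in the values was not tested.

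**Figure D4:**
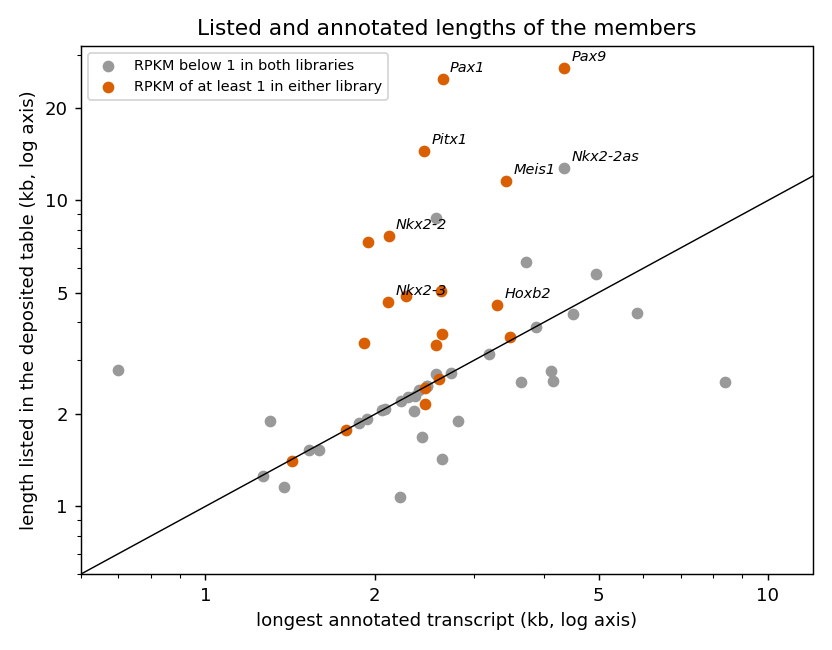
Length listed in the deposited table against the longest annotated transcript (both log axes, kb) for the genes with an annotated transcript, in orange where the RPKM reached 1 in a library and in grey below it. The line marks equal lengths, and *Pax1* and *Pax9* lie furthest above it, at 25.001 and 27.004 kb.

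Among other homeobox genes, 9 cofactors of the TALE class, which include partners of Hox and Meis proteins, leaned to the CvP, as most rows of the table did. The *Irx* and *Meis* genes are of this class too but are not among the 9, and *Irx3*, *Irx4* and *Meis2* leaned to the Epi. Of the 9 cofactors, 6 reached an RPKM of 1 and all 6 were higher in the CvP, where 21.8% of all rows at that level were higher in the Epi. A ratio above 3 for the CvP was seen for 2 of the 6, beside 15.9% of all such rows. Their median log2 ratio was 0.94, against 0.50 for all rows. *Tgif1*, a repressor of TGF-beta signalling, had an RPKM of 16.93 in the CvP library and 3.35 in the Epi library. *Pbx2*, which binds DNA together with Hox proteins, had 8.10 against 4.36. Of 36 further homeobox genes with a row, 14 reached 1, 8 with a ratio above 3 for the CvP and 1 for the Epi, beside 15.9% and 1.96% of all such rows. Among the most abundant were *Hopx*, an atypical homeobox gene that binds no DNA, at 246.56 in CvP tissue against 347.62 in Epi tissue, and *Adnp* at 28.75 and 15.35. The median log2 ratio of the 14 was 1.80, against -0.81 for the positional genes and 0.50 for all rows.

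The Polycomb and trithorax regulators, which keep *Hox* genes off or on, were read in both libraries. All 26 reached an RPKM of 1 and 24 were higher in the CvP, where 21.8% of all rows at that level were higher in the Epi. A ratio above 3 for the CvP was seen for 1, beside 15.9% of all such rows. The median log2 ratio was 0.63, beside 0.50 for all rows. The most abundant were *Ash2l* at 18.51 (CvP) and 15.72 (Epi), *Cbx6* at 14.24 and 1.87, and *Phc2* at 12.48 and 6.12.

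Markers of other cell types differed between the libraries together with these genes. In bulk tissue, fewer cells of a type and less RNA per cell cannot be told apart. Over all rows at an RPKM of 1, 15.9% passed a ratio of 3 for the CvP and 1.96% for the Epi. Of 16 skeletal muscle markers, 9 reached an RPKM of 1, all 9 with a ratio above 3 for the Epi, and the 16 summed to 8.17 in the CvP library and 76.48 in the Epi library. *Myod1* was listed at 0 in both and *Myog* at 0 in the Epi. Of 7 salivary gland markers, 6 reached 1, 2 above a ratio of 3 for the CvP and 3 for the Epi, with sums of 22.23 and 404.45. Of 12 fibroblast markers, 4 reached 1, 2 above a ratio of 3 for the CvP and 1 for the Epi, 3 of the 4 were higher in the CvP, and their median log2 ratio was 1.6. The sums of the 12, 50.6 (CvP) and 134.27 (Epi), leaned the other way through *Dcn* (26.07 and 127.62), while *Fbln1* had 18.54 and 2.79, *Pdgfra* 1.30 and 0.07, and *Col1a1*, *Col1a2* and *Col3a1* were at 0.25 or less. Of 13 immune markers, 6 were above a ratio of 3 for the CvP and none for the Epi, with sums of 163.42 and 9.11. Of 5 endothelial markers, 2 were above that ratio for the CvP. The 8 Schwann cell and nerve markers summed to 16.35 and 49.72, the latter mostly *Tubb3* (4.58 and 40.37), with *Sox10* at 0.18 and 0.08. The 4 melanocyte markers summed to 2.83 and 1.32. The part of these cell types in the values of the positional genes was not tested.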

How the data were processed

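RNA of CvP and Epi was sequenced as 1 pooled library each. The authors mapped reads with Bowtie 0.12.7 to NCBI37/mm9 and deposited RPKM values, computed with ERANGE, beside a length per row. The authors' ratio column was not used. How reads that match several places were treated, and the strand setting, are not given in the sources used here.

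Depth was the number of mapped reads, searched over a set range, that brought low values in 163 rows of 0.1 kb closest to whole reads. Rows up to 0.5 kb with fewer than 20 reads gave whole reads, within 0.1 read, for 96.4% (CvP) and 97.4% (Epi) of values. These rows include those used to set the depth. Reads per gene are RPKM times depth times a length, for which the listed one was capped at that of the gene's longest coding GENCODE M1 transcript. Ratios of RPKM carry 95% Clopper-Pearson intervals. Against 0 reads a fold is a lower limit from a floor of 3 reads per library, and with 1 to 3 reads the ratio is given with its interval, where the plan was to give its lower limit alone. No fold is given where neither library passed 3 reads. Both intervals and floors include no error but that of counting.

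Every gene that reached an RPKM of 1 in a library was named, and of each other list the 3 genes of highest RPKM. Some genes and sequences that this rule would name are not reported here, though counts include them. Genes below 1 and markers outside this rule were named after their values were seen. The genes and lists were chosen with earlier results of these data known. Statistics were tested on simulated data. Homeobox codons were read from transcripts, since no protein table was used here. Alternatives were other minimums, folds, pseudocounts, scalings, lengths and choices of rows. Calculations used Python 3.11.15, numpy 2.4.6, pandas 2.3.3, scipy 1.17.1 and matplotlib 3.10.9.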

Additional observations from a re-analysis of the deposited data

How the results depend on the processing

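No paired analysis was possible because there is only 1 library for CvP and 1 for Epi. With no minimum RPKM, 12 of the 55 genes were above a ratio of 3 for the CvP and 20 for the Epi, beside 25.4% and 4.58% of all rows. These counts hold genes with no more than 3 reads in either library. Without those they were 8 and 10 of 35, beside 23.6% and 3.02% of rows, and over the 55 the median log2 ratio was -0.26. With CvP values divided by the median ratio of 1.31, the median moved to -1.20, and 8 genes were above the ratio for the Epi, *Barx2* and *Dlx5* being added. That scaling gave 11.3% for the CvP and 3.15% for the Epi over all rows. With both columns rescaled to a common sum, 8 of 24 genes were above the ratio for the CvP and 5 for the Epi, beside 24.5% and 1.63% of all rows. *Dlx3* was lost and the median was -0.54. At that scale 3 genes met the study's criteria, but the cuts of 1 and 10 then took in lower deposited values. The share of all rows that met them at that scale was not calculated. With a CvP RPKM above 5 in place of 10, 2 genes met those criteria, beside 4.23% of all rows. Leaving out genes listed at over 1.5 times the annotated length, an alternative chosen after seeing the data, left 9 genes at an RPKM of 1, 1 above the ratio for the CvP, a median of -2.71 and 0 genes meeting the criteria, which 1.48% of all rows so limited met. The interval left out 1 in 29 of the 55 genes with either length, beside 68.8% of all rows with the capped length and 71% with the listed one. None of the 19 ratios changed direction under the 2 scalings, each of which multiplies every ratio by the same constant. A pseudocount added to both libraries cannot change a direction, so the 2 pseudocounts did not test it. The ratio fell outside its counting interval in 4 of 19 genes with a pseudocount of 0.1, and in 11 with a pseudocount of 1. It did so in 11 after division by the median and in 7 after rescaling. The lack of replicates limits every value, and genes below an RPKM of 1 rest on few reads.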
